A study of Rattus norvegicus with 12 samples.

Results

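The 10 genes followed here make, bind or break down hyaluronan, and they were measured in the denervated rat urinary bladder. They are the hyaluronan synthases Has1, Has2 and Has3, the hyaluronan-binding proteoglycans Vcan (versican) and Acan (aggrecan), the link proteins Hapln1 and Hapln3, the hyaluronidases Hyal1 and Hyal2, and the receptor Cd44. The choice was by symbol, and each of the 10 was read by 1 probe set that carries that symbol alone, out of 18166 genes measured. The samples were urinary bladders of female Sprague Dawley rats of about 3 months, 6 taken 10 days after surgery with freezing of a ganglion on both sides (denervated) and 6 after sham surgery. Total RNA of each sample was labelled with biotin and read on 1 array, and values are log2 expression after RMA (robust multi-array averaging), so that a difference of 1 is a 2-fold change. The labels do not say outright that each sample is a separate animal, so p-values measure the spread between these samples, which may be technical.

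Hyaluronan is a long unbranched polysaccharide of alternating glucuronic acid and N-acetylglucosamine. It is polymerised at the plasma membrane by the synthases and extruded into the matrix, where the N-terminal domains of versican and aggrecan bind along the chain and the link proteins lock them to it. Cells hold the chain through Cd44, and it is broken down by Hyal2, which is anchored at the cell surface, and Hyal1, which works in lysosomes. In the bladder, hyaluronan lies in the connective tissue beneath the urothelium and between muscle bundles, and it is abundant in growing or wounded tissue.

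The denervated bladders had more Vcan, Has1 and Cd44 signal and less Hapln1 and Hyal1 signal than the sham bladders. Vcan changed by far the most, at 4.52 times the sham level, and the other 4 changes lay between a rise of 40.9% and a fall to 0.56 of the sham level. Denervated and sham arrays were compared with limma, p-values were adjusted by Benjamini-Hochberg across the 18166 genes, and a gene is called here when its adjusted p is under 0.05. By that rule 3 of the 10 genes rose, 2 fell and 5 were not called, where 28.7% of all genes were called, 11.9% higher and 16.9% lower. Denervated and sham values were fully separate for Vcan, above (5.76% of all genes), and Hapln1, below (7.59%), which held in either direction for 13.3% of all genes. Vcan alone was called with a rise of at least 2-fold (2.9% of all genes), and 0 of the 10 genes fell 2-fold (0.859%). The median log2 difference of the 10 genes was 0.13 and that of all genes -0.04.

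The start of transcription of Vcan and Hapln1 is shown for these genes because they neighbour each other on chromosome 2, were the only members without overlap between the groups, and changed in opposite directions. Each line gives the 250 bases before the annotated start, 5′ to 3′ on the coding strand, from RefSeq on build GRCr8. Capitals mark matches to any of the 4 motifs searched on both strands. One is the GC box, spelled GGGCGG. Another is the SMAD site, spelled CAGAC. The AP-1 site was spelled TGANTCA. The last was the core promoter element spelled TATAAA.
Vcan, minus strand, chr2:22595956-22596205: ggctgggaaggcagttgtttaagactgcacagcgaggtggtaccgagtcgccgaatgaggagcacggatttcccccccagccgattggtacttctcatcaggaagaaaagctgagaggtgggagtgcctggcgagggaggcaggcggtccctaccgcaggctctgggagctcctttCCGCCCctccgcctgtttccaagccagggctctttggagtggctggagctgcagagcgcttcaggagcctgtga
Hapln1, plus strand, chr2:22366717-22366966: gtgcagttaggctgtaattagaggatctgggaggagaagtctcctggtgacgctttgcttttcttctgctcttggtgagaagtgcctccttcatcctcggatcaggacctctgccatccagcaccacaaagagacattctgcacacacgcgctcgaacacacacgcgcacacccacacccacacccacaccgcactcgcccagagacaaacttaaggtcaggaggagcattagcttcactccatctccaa
The Vcan stretch holds 1 GC box, 74 bases before the start on the opposite strand, a motif found in 30.5% of the 33360 rat promoter stretches of the same length. The Hapln1 stretch holds none of the 4 motifs. TATAAA occurs in 12.9% of all stretches, TGANTCA in 6.35% and CAGAC in 42.9%, and a match or its lack describes these letters alone. RefSeq lists another Vcan start, whose stretch overlaps the printed one and holds the same GC box. Stretches were at hand for 7 of the 10 genes. That of Has1, printed below its values, was the only one with CAGAC, at 3 places, and Acan, Hyal1 and Hyal2 each held GGGCGG.

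One array stood apart from its group, denervated replicate 2. The first principal component of all genes (58% of the variance) put it at -5.84. The remaining denervated arrays had scores of 25.9 to 42.5, and sham arrays had scores of -30.2 to -22.5. Array medians lay between 5.82 and 5.9. Values without that array are given beside the named genes and the pairs whose call it changes. Counts over a list are for all arrays unless a left-out array is mentioned, and unnamed genes can change call too. The label describes the tissue as over 95% smooth muscle. The smooth muscle genes Myh11 (means of 12.63 in denervated and 13.14 in sham bladders) and Actg2 (12.90 and 12.91) were bright, but so was the urothelial gene Upk1a (12.10 and 12.72), so RNA of the urothelium was present as well.

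**Figure D1:**
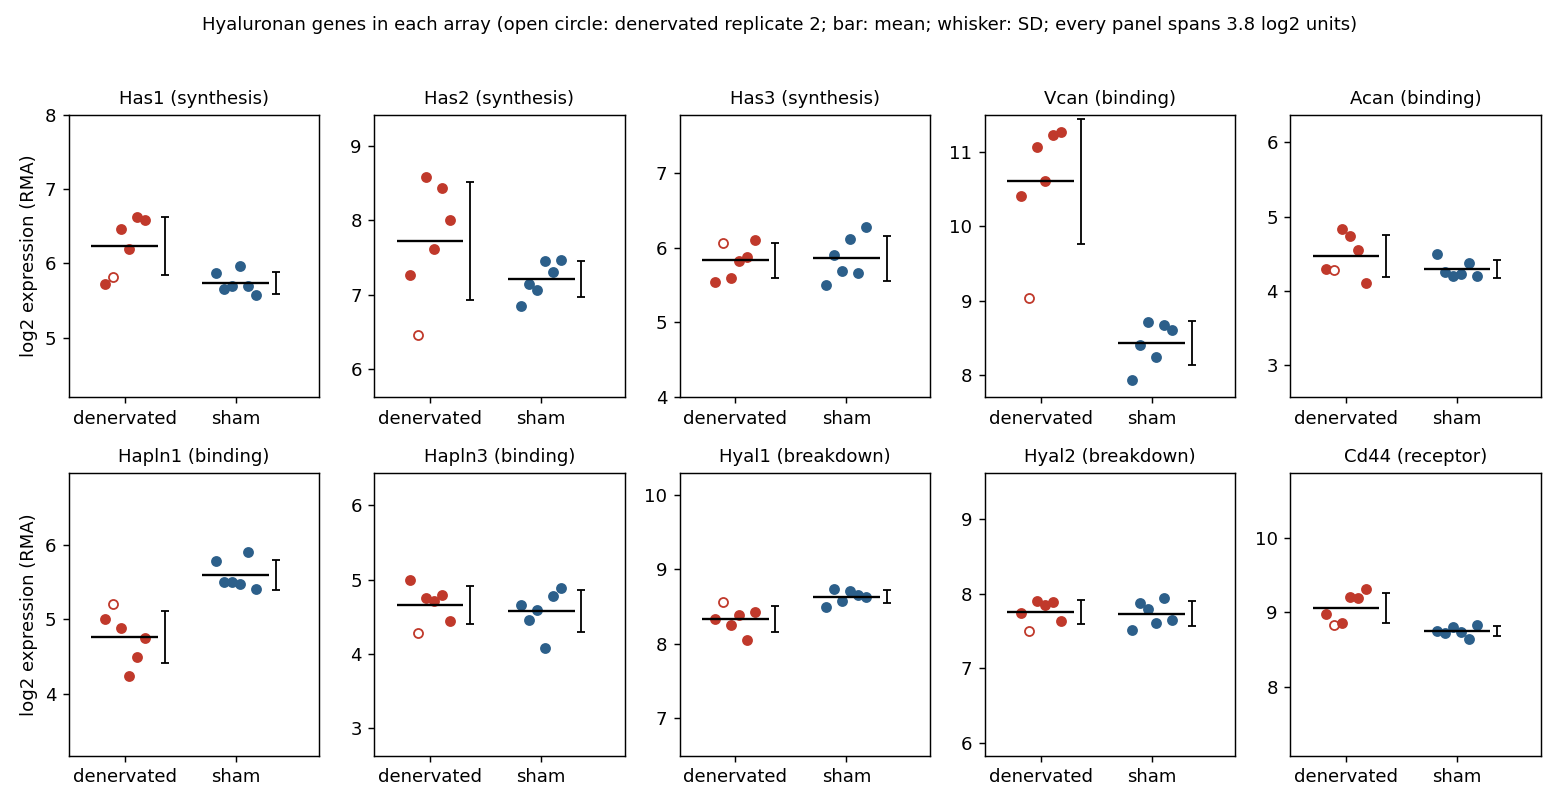
Log2 expression (vertical axis, the same span in every panel) of the 10 hyaluronan genes in the 6 denervated (left, red) and 6 sham (right, blue) arrays, with the mean as a bar and the SD as a whisker. Vcan and Hapln1 are the genes whose groups do not overlap, and the open circle, denervated replicate 2, is the lowest denervated value for Vcan (9.04) and Has2 (6.46).

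Among the synthases, Has1 rose, Has2 was not called and Has3 was level. Has1 ranged over 5.73, 6.33 and 6.62 (lowest, median and highest) in denervated bladders and over 5.58, 5.69 and 5.96 in sham bladders. Denervated replicates 3, 4, 5 and 6 lay above every sham array, while replicates 1 and 2 lay inside the sham range. The mean was 6.23 ± 0.39 in denervated and 5.74 ± 0.15 in sham bladders (SD, n = 6 each), a difference of 0.49 ± 0.15 (SE; limma adjusted p = 0.0272). This call was weak. Leaving out any one of sham replicates 2, 5 and 6 or of denervated replicates 3, 5 and 6 ended it, with limma adjusted p of 0.0521 to 0.0629, and so did the exact rank-sum test (adjusted p = 0.0851). Has1 is also dim. Of 66 olfactory receptor genes, taken as a rough guide to signal with little or no transcript, 3 were brighter than Has1.
The 250 bases before the start of Has1, with its CAGAC matches in capitals, are shown since they differ from those of the other genes in this motif.
Has1, minus strand, chr1:67378445-67378694: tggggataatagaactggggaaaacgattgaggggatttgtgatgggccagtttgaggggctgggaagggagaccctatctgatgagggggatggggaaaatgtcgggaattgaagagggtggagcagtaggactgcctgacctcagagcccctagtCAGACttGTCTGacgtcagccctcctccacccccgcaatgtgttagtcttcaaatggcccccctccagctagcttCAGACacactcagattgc

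Has2, the synthase held to make the longest chains and the one essential for the mouse embryo, ranged over 6.46, 7.80 and 8.58 in denervated bladders and over 6.85, 7.23 and 7.46 in sham bladders. Denervated replicates 3, 4, 5 and 6 lay above every sham array and denervated replicate 2 lay below every one, so that both the highest and the lowest of the 12 values were denervated. The means were 7.73 ± 0.79 and 7.21 ± 0.24 (SD, n = 6 each), and the difference of 0.52 ± 0.30 was not called (SE; limma adjusted p = 0.222), with a 95% interval of -0.12 to 1.15. Without denervated replicate 2 the difference was 0.77, or 1.70-fold, and was called (limma adjusted p = 0.0144). All 66 olfactory receptor genes were dimmer than Has2.

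Has3, which makes shorter chains, had values of 5.54, 5.85 and 6.10 in denervated bladders and of 5.50, 5.80 and 6.28 in sham bladders, so the groups overlapped fully. Its difference was -0.03 ± 0.14 (SE; limma adjusted p = 0.914), with a 95% interval of -0.33 to 0.28. Has3 is dim as well, with 5 of the 66 olfactory receptor genes brighter, so its level signal may say little about its transcript. Whether synthases changed unequally was asked by the log2 difference between each pair within an array, with an exact two-sided permutation test over all ways to form groups of 6 and 6. Adjusted p-values cover 6 such pairs of family members. The change of Has3 minus that of Has1 was -0.52 (exact permutation p = 0.0368, adjusted 0.0736), and that of Has2 minus that of Has3 was 0.54 (exact permutation p = 0.193, adjusted 0.231). Neither passed. Without denervated replicate 2 the values were -0.65 (exact permutation, adjusted p = 0.013) and 0.84 (exact permutation, adjusted p = 0.00649), and both passed. Without sham replicate 1 the Has3 and Has1 pair passed too, at -0.62 (exact permutation, adjusted p = 0.0433). With Has3 so dim, these pairs add little to the values of Has1 and Has2. Has2 and Has1 differed in change by 0.02 (exact permutation p = 0.935).

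Vcan, the large chondroitin sulfate proteoglycan of loose and remodelling connective tissue, had values of 9.04, 10.84 and 11.26 in denervated bladders and of 7.94, 8.50 and 8.71 in sham bladders. Every denervated array lay above every sham array. Denervated replicate 2 came closest, and the other 5 denervated arrays began at 10.41. The means were 10.60 ± 0.84 and 8.43 ± 0.30 (SD, n = 6 each), a difference of 2.17 ± 0.32 (SE; limma adjusted p = 0.000427), and the interval of 2.80 to 7.28 around the 4.52-fold rise covers sampling of these arrays only. It ranked 73rd among all 18166 genes by size of rise. Without denervated replicate 2 the difference was 2.49, or 5.61-fold.

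Acan, the related proteoglycan of cartilage, was dim, with 4.11, 4.42 and 4.83 in denervated bladders and 4.20, 4.24 and 4.50 in sham bladders. Denervated replicates 3, 4 and 5 were above every sham array and replicate 6 below every one. The difference of 0.18 ± 0.12 was not called (SE; limma adjusted p = 0.30), and 20 of the 66 olfactory receptor genes were brighter, so whether Acan was transcribed at all cannot be told from these values. The change of Vcan exceeded that of Acan by 2.00 (exact permutation p = 0.00216, the smallest that the regroupings allow, adjusted 0.013). With Acan so dim, this difference mostly restates the rise of Vcan.

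**Figure D2:**
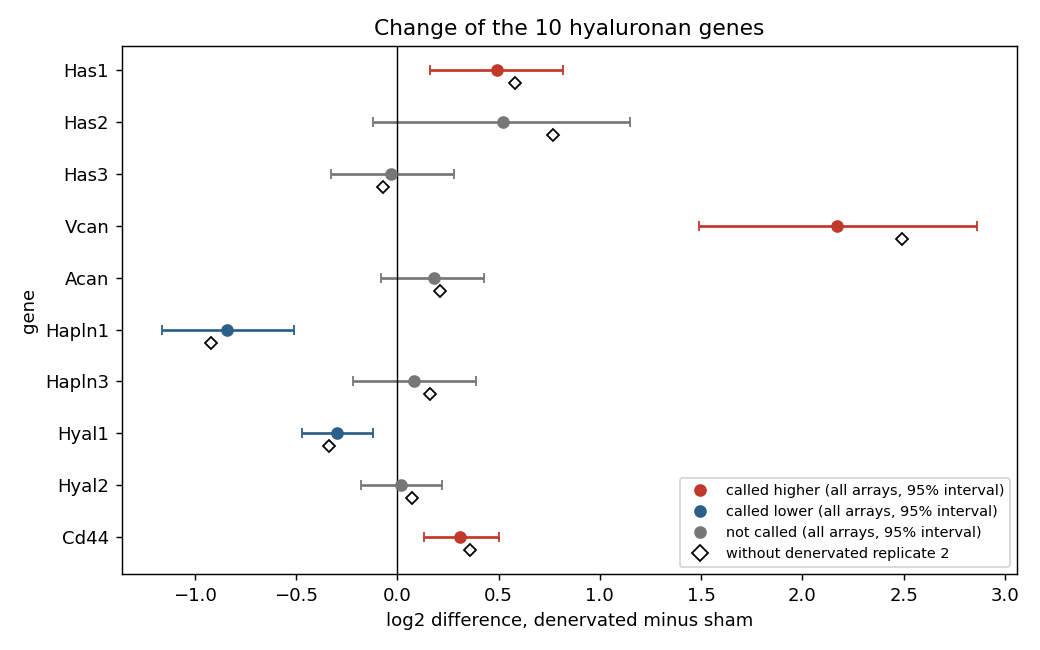
Log2 difference, denervated minus sham (horizontal axis), of the 10 genes with 95% intervals from the limma fit over all arrays, and without denervated replicate 2 as diamonds. Vcan stands at 2.17 and Hapln1 at -0.84, and the interval of Has2 spans 0 while its diamond lies at 0.77.

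The link protein Hapln1 fell. It stood at 4.24, 4.82 and 5.21 in denervated bladders and at 5.41, 5.50 and 5.90 in sham bladders, with every denervated array below every sham array. Denervated replicate 2 was again the nearest to the sham values. The means were 4.76 ± 0.35 and 5.60 ± 0.20 (SD, n = 6 each), a difference of -0.84 ± 0.15 (SE; limma adjusted p = 0.0013). Hapln1 is dim, with 10 of the 66 olfactory receptor genes brighter over all arrays and 14 in denervated bladders, so the size of its fall is uncertain. Hapln3, which is made outside cartilage and brain as well, stood at 4.28, 4.73 and 4.99 in denervated bladders and at 4.08, 4.62 and 4.89 in sham bladders. The groups overlapped, although denervated replicate 1 lay above every sham array and sham replicate 4 below every denervated array. The difference of Hapln3 was 0.08 ± 0.14 (SE; limma adjusted p = 0.708), and 16 of the 66 olfactory receptor genes were brighter. The change of Hapln3 exceeded that of Hapln1 by 0.92 (exact permutation p = 0.00649, adjusted 0.0195), and with Hapln3 so dim this adds little to the fall of Hapln1.

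Of the hyaluronidases, Hyal1 fell by a small amount and Hyal2 was level. Hyal1 stood at 8.05, 8.35 and 8.56 in denervated bladders and at 8.49, 8.64 and 8.74 in sham bladders. All denervated arrays but replicate 2 lay below the lowest sham array. The means were 8.33 ± 0.17 and 8.63 ± 0.09 (SD, n = 6 each), a difference of -0.30 ± 0.08 (SE; limma adjusted p = 0.014). Hyal2 stood at 7.50, 7.79 and 7.90 in denervated bladders and at 7.52, 7.72 and 7.95 in sham bladders, and differed by 0.02 ± 0.09 (SE; limma adjusted p = 0.896, 95% interval of -0.18 to 0.22). The change of Hyal2 minus that of Hyal1 was 0.32 (exact permutation p = 0.0541, adjusted 0.0812), and it passed without denervated replicate 2, at 0.41 (exact permutation, adjusted p = 0.013).

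Cd44, the main cell surface receptor of hyaluronan on leukocytes, mesenchymal cells and basal epithelial cells, rose by a small amount. It stood at 8.83, 9.08 and 9.31 in denervated bladders and at 8.64, 8.75 and 8.83 in sham bladders. Denervated replicate 2 reached the top of the sham range, and the other 5 denervated arrays lay above it. The means were 9.06 ± 0.20 and 8.75 ± 0.07 (SD, n = 6 each), a difference of 0.31 ± 0.09 or 1.24-fold (SE; limma adjusted p = 0.0156). None of Cd44, Hyal1 and Has1 was called when limma tested against a change of 1.2-fold (adjusted p = 1, 1 and 0.504).

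**Figure D3:**
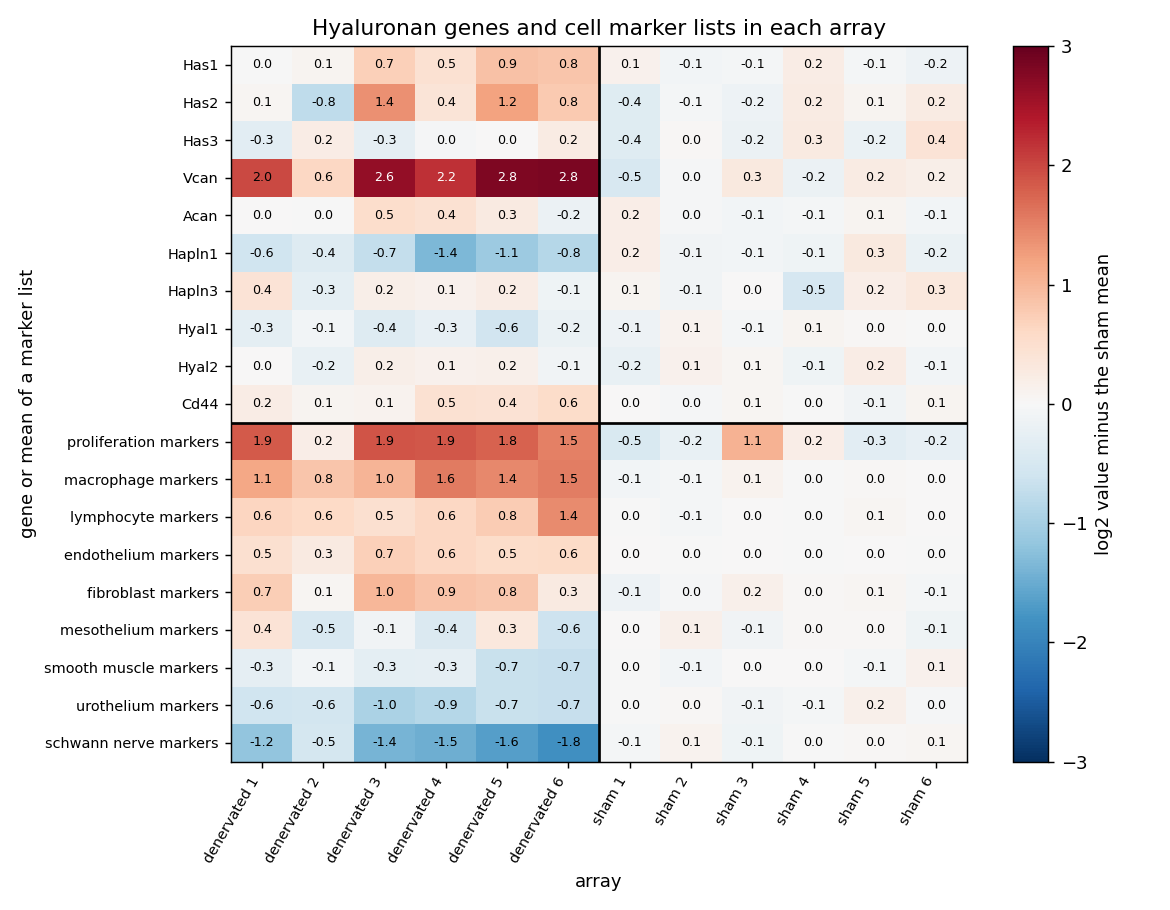
Log2 value minus the sham mean (colour and number) of each hyaluronan gene and of the mean over each cell marker list, by array, with the denervated arrays on the left. Vcan is positive in all 6 denervated arrays, from 0.6 in replicate 2 to 2.8 in replicates 5 and 6, and Has1 and Has2 are highest in replicates 3, 5 and 6.

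Markers of several cell types differed between the same samples. In whole bladder, a change in the number of cells of a type and a change in RNA per cell cannot be told apart. Of 10 macrophage markers 9 rose and 0 fell, and their averaged level, relative to the sham mean, was 0.83 for denervated replicate 2, 1.03 to 1.56 for denervated replicates 1 and 3 to 6, and -0.09 to 0.10 for sham arrays. The values below follow that order. Of 10 fibroblast markers 6 rose and 0 fell (0.06, then 0.28 to 1.00, and -0.15 to 0.16 for sham arrays). Of 7 proliferation markers 6 rose and 0 fell (0.20, then 1.51 to 1.88, and -0.45 to 1.05 for sham arrays, the highest of which was replicate 3). All 9 measured urothelial markers fell (-0.55, then -0.96 to -0.60, and -0.10 to 0.16), as did 6 of 7 Schwann cell and nerve markers (-0.52, then -1.83 to -1.19, and -0.14 to 0.11). The nerve marker Sox10 lost its call in 11 of the fits that left out 1 array (limma adjusted p of 0.0508 to 0.106). The fibroblast marker Dpt lost its call in 8 of them (0.0505 to 0.0644). Among 10 lymphocyte markers 7 rose and 0 fell (0.59, then 0.49 to 1.41, and -0.06 to 0.05). Those not called were the B cell genes Ms4a1 (0.08), Cd79a (0.02) and Cd79b (-0.02). Of 6 endothelial markers 3 rose and 0 fell (0.28, then 0.49 to 0.71, and -0.02 to 0.02). Of 8 smooth muscle markers 1 rose and 5 fell (-0.09, then -0.69 to -0.26, and -0.08 to 0.12), and of 7 mesothelial markers 1 rose and 2 fell (-0.47, then -0.61 to 0.40, and -0.13 to 0.15). The mesothelial markers that fell, Upk3b and Krt19, are also counted among the urothelial markers above. Of 5 lymphatic markers 1 rose and 0 fell (0.09, then -0.03 to 0.55, and -0.19 to 0.21), or 2 rose when replicate 2 of either group was left out. With 1 array left out at a time, 5 to 8 fibroblast markers rose. So did 3 to 4 endothelial and 6 to 7 proliferation markers. No marker of these lists was at 0, since RMA values have no true zero. The part of any of these cell types in the changes of Vcan, Has1, Cd44, Hapln1 and Hyal1 was not tested.

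The genes around the synthases and binding proteins were taken from 8 lists, 88 measured genes in all besides the 10, of which 35 rose, 9 fell and 44 were not called. That is 50% called, where 28.7% of all genes were (11.9% higher and 16.9% lower). The counts of each list below are to be read beside these shares. Several of these genes were as dim in sham bladders as the brighter olfactory receptor genes, among them Ptx3, Prg4, Hmmr, Layn, Tlr2, Susd5, Adamts4 and Mmp9, and the sizes of their rises are uncertain. The lists were drawn up with earlier results on matrix genes of these samples known.

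Transcripts of enzymes that supply the sugar nucleotides changed little at the median, and Uap1 and Hk1 of that list had no probe set of their own. Of 12 measured enzymes 4 rose, 0 fell and 8 were not called, with a median difference of 0.10, and every call was small. Over all genes 11.9% rose and 16.9% fell. Pgm3, a mutase of the N-acetylglucosamine branch, rose by 0.35 (limma adjusted p = 0.0385), the N-acetylglucosamine kinase Nagk by 0.28 (0.0437), the hexokinase Hk2 by 0.27 (0.0476) and the phosphoglucomutase Pgm1 by 0.21 (0.0242). These calls hung on single arrays. The count was 0 when sham replicate 1 or 2 was left out. It was 1 when sham replicate 4 or 6 was left out, or any one of denervated replicates 3, 4 and 5, and 2 with sham replicate 3 or 5 or denervated replicate 1 left out. Ugdh, which makes UDP-glucuronic acid, differed by 0.14 (adjusted p = 0.235), and Gfpt2, an entry enzyme of the hexosamine pathway, by 0.51 (adjusted p = 0.0794). Without denervated replicate 2, Gfpt2 was called too, at 0.70 (limma adjusted p = 0.00177), and the count was 5.

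Of 14 other hyaluronan-binding proteins measured, 2 rose, 2 fell and 10 were not called, with a median of 0.02. These counts are near the shares over all genes, of which 11.9% rose and 16.9% fell. Ptx3, a pentraxin that helps to cross-link hyaluronan with heavy chains of inter-alpha-inhibitor, ranged from 5.73 to 7.40 in denervated bladders and from 5.14 to 5.71 in sham bladders, a rise of 1.49 ± 0.24 (SE; limma adjusted p = 0.000744). Prg4, the lubricant proteoglycan of joints, which works together with hyaluronan, ranged from 5.33 to 8.70 in denervated bladders and from 5.36 to 6.21 in sham bladders. Its rise was 1.64 ± 0.45 (SE; limma adjusted p = 0.0156), 5 denervated arrays lay above all sham arrays, and denervated replicate 2 held the lowest value of all 12. The exact rank-sum test did not call it (adjusted p = 0.158). Hapln4, a link protein known from the brain, fell by 0.67 (limma adjusted p = 0.000441), and its denervated values (5.54 to 6.07) lay below all sham values (6.34 to 6.74). In denervated bladders 6 of the 66 olfactory receptor genes were brighter than Hapln4, so the size of its fall is uncertain. Habp4, whose product despite its name acts mainly inside the cell as an RNA-binding protein, fell by 0.27 (adjusted p = 0.00505). Both proteoglycans of brain, Ncan (0.04) and Bcan (0.03), were not called. Both were dim, with 10 of the 66 olfactory receptor genes brighter than each in sham bladders.

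Of 7 other receptors and sensors of hyaluronan, 4 rose, 0 fell and 3 were not called, with a median of 0.36. Hmmr, which binds hyaluronan and also the mitotic spindle, rose by 1.48 ± 0.29 (SE; limma adjusted p = 0.00245), beside the rise of 6 of the 7 proliferation markers, whose part in it was not tested. Hmmr ranged from 5.14 to 6.84 in denervated bladders and from 4.49 to 5.86 in sham bladders. Sham replicate 3 (5.86) lay above denervated replicate 2 (5.14). Layn (layilin), a membrane protein with a hyaluronan-binding lectin domain, ranged from 6.36 to 7.41 in denervated bladders and from 5.32 to 5.72 in sham bladders, a rise of 1.31 ± 0.15 (SE; limma adjusted p = 9.84e-05) that was present in denervated replicate 2 too (6.36). Tlr2, a pattern receptor that responds to hyaluronan fragments, rose by 0.91 (adjusted p = 0.000393), and Susd5 by 0.25 (adjusted p = 0.0222). The call for Susd5 ended when any one of sham replicates 2 and 5 and denervated replicates 4 and 5 was left out (adjusted p of 0.0522 to 0.0531). Lyve1 (0.30, adjusted p = 0.125), the receptor of lymphatic vessels, Stab1 (0.17) and Tlr4 (0.36) were not called. Lyve1 was called without denervated replicate 2, at 0.41 (limma adjusted p = 0.0113), and Stab1 without denervated replicate 6, at 0.31 (0.0313).

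Of 9 further genes of hyaluronan breakdown, 3 rose, 1 fell and 5 were not called, with a median of 0.15. Cemip, an extracellular hyaluronan-depolymerising protein, had 5.35, 5.93, 6.61, 7.88, 8.04 and 8.42 in denervated replicates 2, 6, 4, 1, 5 and 3, against 4.81 to 5.27 in sham bladders. All denervated arrays lay above the sham range, denervated replicate 2 by the least. The rise was 2.00 ± 0.45 or 4.01-fold (SE; limma adjusted p = 0.00517). The sham mean was 5.04, and 11 of the 66 olfactory receptor genes were brighter in sham bladders, so the size of the rise is uncertain. Its relative Cemip2, a membrane hyaluronidase, rose by 0.60 (adjusted p = 0.00045), and Gusb, the lysosomal glucuronidase that trims hyaluronan oligosaccharides, by 0.61 (adjusted p = 0.000961). Hyal3, close to Hyal1 and Hyal2 in the genome, fell by 0.21 (adjusted p = 0.0481). Leaving out any sham replicate, or any one of denervated replicates 3 to 6, ended that call (adjusted p of 0.0514 to 0.103).

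Of 7 measured proteases that cut versican or aggrecan and their inhibitors, 4 rose, 0 fell and 3 were not called, with a median of 0.69. Adamts4 rose by 1.09 ± 0.19 (SE; limma adjusted p = 0.00132), Adamts9 by 0.91 (0.00213), Adamts1 by 0.89 (0.00448) and Adamts15 by 0.69 (0.00328). Adamts5 differed by 0.50 (adjusted p = 0.0529) and was called without denervated replicate 2, at 0.68 (limma adjusted p = 5.11e-05). Timp3, an inhibitor of these proteases, differed by -0.09 (adjusted p = 0.698). Averaged over the 7 genes, denervated replicate 2 stood 0.07 above the sham mean and the others 0.47 to 0.83 above it, with sham arrays at -0.17 to 0.15.

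Of 8 measured matrix and adhesion partners of these proteoglycans or of Cd44, 5 rose, 0 fell and 3 were not called, with a median of 1.39. Fbln2 (fibulin-2), which binds the C-terminal domain of versican, rose by 1.99 ± 0.34 or 3.96-fold (SE; limma adjusted p = 0.000961), with means of 9.67 in denervated and 7.69 in sham bladders and 8.05 in denervated replicate 2. Osteopontin (Spp1), a ligand of Cd44, tenascin-N (Tnn) and fibronectin (Fn1) rose by 5.03, 4.37 and 1.60. The sizes for Spp1 and Tnn are uncertain, since 11 and 20 of the 66 olfactory receptor genes were brighter than their sham means of 5.15 and 4.48. Fbln1 (0.14), another fibulin, was not called (adjusted p = 0.353).

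The list of Cd44 partners, sheddases and splicing regulators moved both ways, with 5 of 10 genes higher, 4 lower and 1 not called, and a median of 0.15. Mmp9, which docks on Cd44, rose by 1.72 ± 0.22 (SE; limma adjusted p = 0.000188), the sheddase Mmp14 by 0.95 (0.000503), moesin (Msn), which ties Cd44 to actin, by 0.90 (0.000884), and Cd74, which signals through Cd44, by 0.57 (0.000413). The genes that fell, named after their values were seen, were ezrin (Ezr, -0.26), merlin (Nf2, -0.34) and the epithelial splicing regulators Esrp1 (-0.48) and Esrp2 (-0.46), which act on variant exons of Cd44. The fall of Ezr (adjusted p = 0.0486) was no longer called when any one of the sham replicates or of denervated replicates 1 to 4 was left out (0.0545 to 0.106). The urothelial markers fell in the same samples, as given above, and their part in these falls was not tested. The array has 1 value for Cd44 and gives nothing on its variants.

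**Figure D4:**
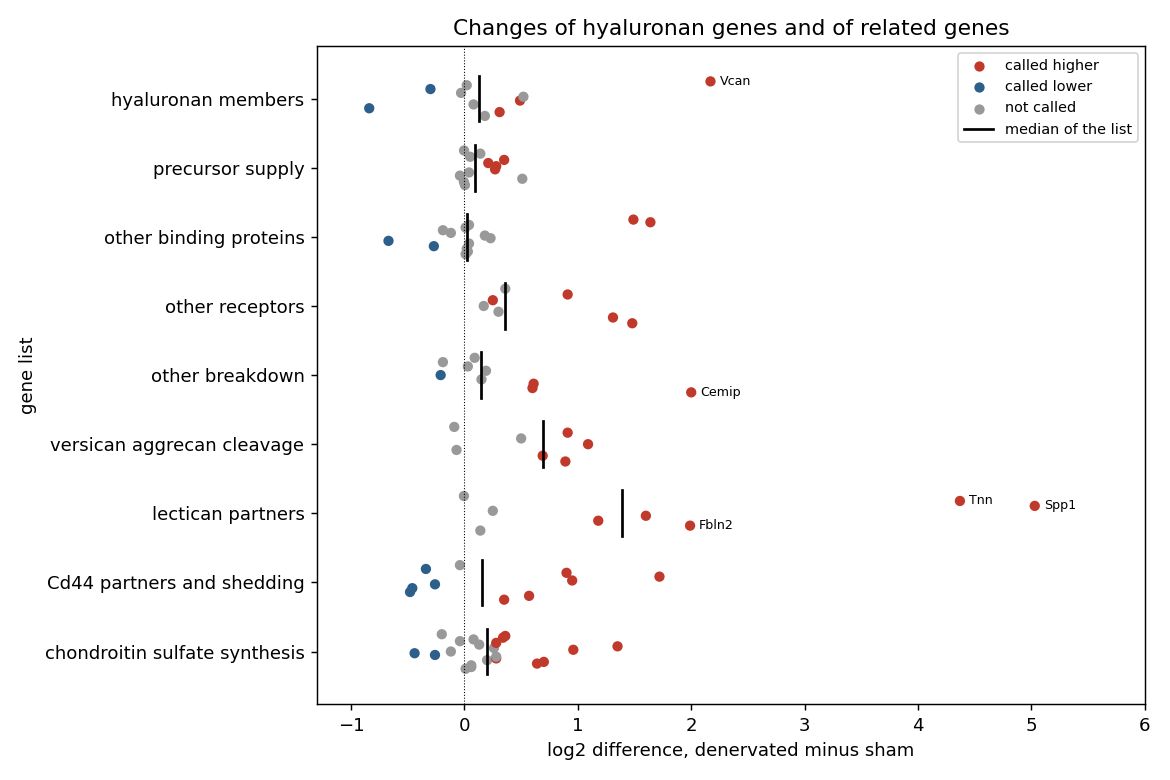
Log2 difference, denervated minus sham (horizontal axis), of the 10 hyaluronan genes and of the genes of each related list, where a point is a gene, its colour is the call, and the black bar is the median of the list. The medians lie between 0.02 for other binding proteins and 1.39 for partners of the proteoglycans.

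Versican carries chondroitin sulfate chains, and genes for making them rose in part. Of 21 measured, 8 rose, 2 fell and 11 were not called, with a median of 0.20. Csgalnact1, which starts the chain, was higher by 1.35 ± 0.23 (SE; limma adjusted p = 0.00106), the chain-extending Chsy1 by 0.96 (0.000543) and Chpf by 0.64 (0.00341), and the sulfotransferase Chst11 by 0.70 (0.0118). Their relatives Csgalnact2 (0.13, adjusted p = 0.204) and Chsy3 (0.26, adjusted p = 0.248) were not called. The genes that fell, named after their values were seen, were the sulfotransferases Chst3 (-0.44, adjusted p = 0.0157) and Chst15 (-0.26, adjusted p = 0.0345). Chst15 lost its call when denervated replicate 1 was left out, and the count of 2 became 1 when any one of sham replicates 1 to 5 or of denervated replicates 3 to 5 was left out. Averaged over the 21 genes, denervated replicate 2 stood 0.01 above the sham mean and the others 0.21 to 0.38 above it, with sham arrays at -0.07 to 0.05.

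In the GRCr8 annotation 6 of the 10 genes lie side by side in pairs, with no coding gene between them: Hapln1 and Vcan on chromosome 2, Acan and Hapln3 on chromosome 1, and Hyal2 and Hyal1 on chromosome 8. In the first pair the neighbours changed in opposite directions, Vcan by 2.17 and Hapln1 by -0.84, while the genes flanking them, Edil3 (0.23, adjusted p = 0.234) and Xrcc4 (-0.12, adjusted p = 0.332), were not called. Acan and Hapln3 were both dim and not called, and Mfge8 beside them, a secreted bridge to apoptotic cells, rose by 1.33 (limma adjusted p = 0.00162). In the hyaluronidase cluster the differences were small throughout, from -0.37 for Tusc2, a tumour suppressor gene beside Hyal2, to 0.15 for Rassf1. Besides Hyal1 (-0.30) and Hyal3 (-0.21), Tusc2 (limma adjusted p = 0.00127) and Ifrd2 (-0.17, adjusted p = 0.0418) were called lower. The other measured genes there, Hyal2 among them, were not called.

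**Figure D5:**
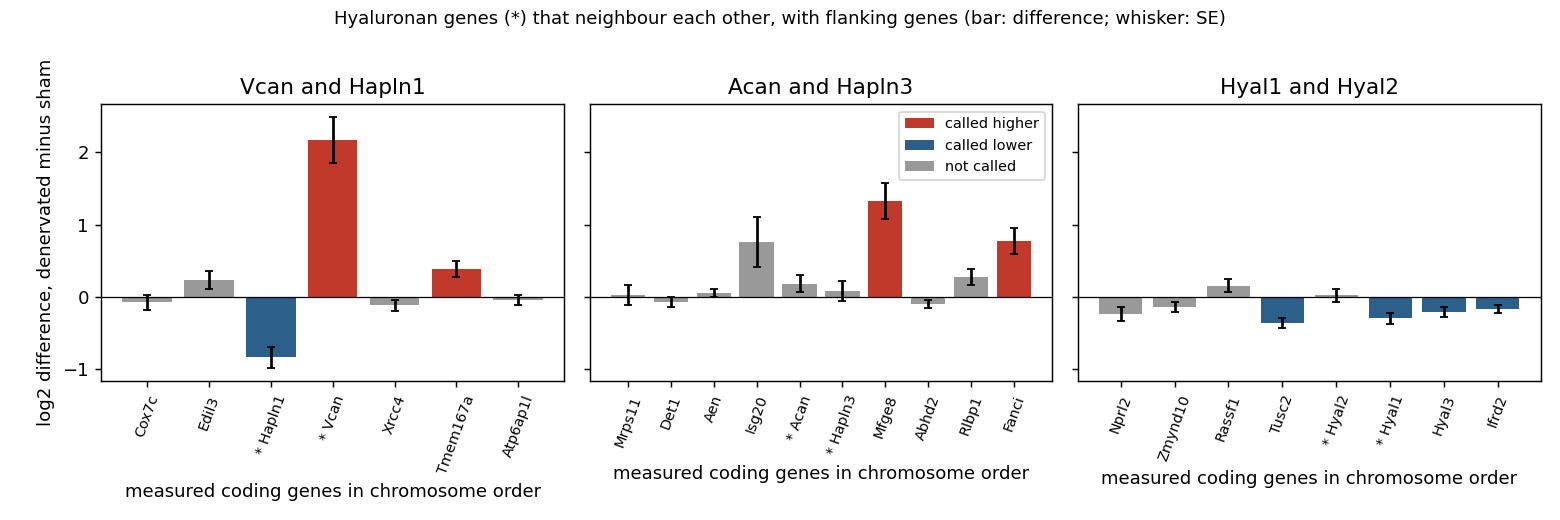
Log2 difference, denervated minus sham (bars, with SE as whiskers), of measured coding genes in chromosome order around the 3 pairs of neighbouring hyaluronan genes, which are starred. In the left panel Vcan (2.17) and Hapln1 (-0.84) point in opposite directions beside Edil3 (0.23) and Xrcc4 (-0.12).

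The genes most like Vcan and Hapln1 were sought by the root mean square distance over the 12 arrays between values centred on each gene's own sham mean. Nearest to Vcan were C3h15orf48 at a distance of 0.28 (difference 2.37), Vegfd, a growth factor for lymphatic vessels, at 0.34 (2.40), the elastin cross-linking enzyme Loxl1 at 0.34 (1.91) and the matricellular protein Ccn5 at 0.35 (2.39). All 4 were low within the denervated group in replicate 2, at 7.87, 7.64, 9.38 and 7.75, against denervated means of 9.21, 9.27, 10.59 and 9.45. That follows from the choice by distance, since Vcan itself was lowest there within the denervated group. Nearest to Hapln1 were Pxmp2, a peroxisomal membrane protein, at 0.15 (difference -0.77), the glial transcription factor Olig1 at 0.16 (-0.89), Fez1, a kinesin adaptor in axons, at 0.17 (-0.86) and the bicarbonate transporter Slc4a4 at 0.17 (-0.74). A small change gives small distances, so those of the Vcan and Hapln1 neighbours are not to be set against each other.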

How the data were processed

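The deposited log2 values of 36685 probe sets on 12 arrays were made by the authors with RMA in Affymetrix Expression Console 1.4.1.46, per the submitters' processing notes. The genome build behind the array is not given in the sources used here. Groups came from the sample titles. Of 19086 named probe sets, 18511 carry 1 gene (18394 matched to RefSeq GRCr8 by identifier), and the one with the highest mean stood for each of 18166 genes. Values were tested as deposited with limma 3.58.1 (lmFit, eBayes; R 4.3.3), two-sided, after a check on simulated data. Pairs of family members were compared by exact permutation. Precision is limited by how many arrays there are. Up to 4 called genes with the largest change were named per list, and others named were chosen after their values were seen. The members and lists were chosen with earlier results of these data known. Alternatives were quantile normalization, median centring, leaving out the dimmest 25% of genes, trend and robust moderation, array weights, an exact rank-sum test, a test against 1.2-fold, averaging the probe sets of a gene, a block on the replicate number, and dropping each array in turn. Listed genes without a probe set of their own were not analysed here.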

Additional observations from a re-analysis of the deposited data

How the results depend on the processing

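Testing for more than a 1.2-fold change, a stricter test by construction, moved counts most, with 1252 genes called (756 higher, 496 lower), 2 of the 10 hyaluronan genes (Vcan higher, 1, and Hapln1 lower, 1) and 22 related genes (21 higher, 1 lower). Leaving out 1 array at a time gave 4374 to 6273 genes called (1831 to 2612 higher, 2543 to 3661 lower), 4 to 6 hyaluronan genes (2 to 4 higher, 2 lower) and 35 to 48 related genes (29 to 40 higher, 6 to 8 lower). Same-numbered samples of the groups are not paired by the labels, their deviations correlated at -0.112 to 0.101, and 2 of 12 samples correlated best with their own number. With the replicate number as a block, 4460 genes were called, 4 of them among the 10, and Has1 was lost (adjusted p = 0.0522). Permuted within the block, the Vcan and Acan pair (2.00) and the Hapln3 and Hapln1 pair (0.92) no longer passed (adjusted p = 0.0938 for each). Both reached the smallest p that this design allows, 0.0312, which passes after adjustment over 6 pairs only if at least 4 pairs reach it, so this says nothing about their stability. The block changed no other call of the 10 genes or 6 pairs.

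Without 1 array, Vcan minus Acan ranged from 1.80 to 2.28, Hapln3 minus Hapln1 from 0.80 to 1.09, Has2 minus Has1 from -0.10 to 0.19, Has2 minus Has3 from 0.32 to 0.84, Has3 minus Has1 from -0.65 to -0.40 and Hyal2 minus Hyal1 from 0.23 to 0.41. Uncalled genes near 0 changed sign. Without 1 array, Has3 ranged from -0.10 to 0.06, Hapln3 from -0.01 to 0.16 and Hyal2 from -0.02 to 0.07, and Hyal2 stood at -0.00097 after median centring. Vcan and Hapln1 stayed called under every alternative, with adjusted p of at most 0.0163 and 0.0205. Acan and Hapln3 have no value without the dimmest 25% of genes, and for these and Hapln1 the unknown signal over background limits what can be said.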

Other observations

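The denervated arrays differed among themselves more than the sham arrays did in several of these genes. The SD of the denervated group was 3.30 times that of the sham group for Has2, 3.00 times for Cd44, 2.82 times for Vcan and 2.68 times for Has1, but 0.779 times for Has3 and 0.895 times for Hapln3. Denervated replicate 2 adds to the ratios of Vcan and Has2. It stood at 9.04 and 6.46, while the other denervated values began at 10.41 and 7.27. These ratios were not tested.

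Cemip and Prg4 placed the denervated arrays in nearly the same order, with replicates 5 (8.04 and 8.70), 3 (8.42 and 8.57) and 1 (7.88 and 7.89) high, replicates 4 (6.61 and 7.23) and 6 (5.93 and 7.16) lower and replicate 2 lowest (5.35 and 5.33). The mesothelial marker Wt1 was grouped likewise, with replicates 1 (8.35), 5 (8.17) and 3 (8.11) high. Replicates 4 (7.84) and 6 (7.24) were lower and replicate 2 (6.85) was lowest. Msln, Lrrn4 and Bnc1 were also highest in replicates 1, 3 and 5, while Upk3b, Krt19 and Calb2 lacked that grouping. The order is thus not particular to Cemip and Prg4. Spp1 did not follow it, with its highest denervated value in replicate 4 (11.41) and its lowest in replicate 3 (8.89). Sham arrays had 4.85 to 5.35 for Spp1. All these genes were picked after their values were seen.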
